A study of Mus musculus with 20 samples.

Results

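The genes described here are 9 genes of retinoid uptake, metabolism and signaling: Stra6, Rbp4, Aldh1a1, Aldh1a3, Dhrs3, Crabp1, Crabp2, Rarb and Rarg. They were taken from the 45706 genes counted in the series because their levels differed between its groups, so their differences are a description here, given with standard errors (SE) and without p-values, and the counts of those that passed a threshold are given beside the share of all genes and are not evidence for them. All 9 passed the filter on low counts in tumors, among 18617 genes. In cells 7 of the 9 passed it, among 15178 genes, and Rbp4 and Crabp1 did not.

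Retinol, or vitamin A, travels in blood bound to the carrier encoded by Rbp4, and the membrane receptor encoded by Stra6 takes it up into cells. Retinol dehydrogenases such as RDH10 oxidize it to retinal, the enzymes encoded by Aldh1a1 and Aldh1a3 oxidize retinal to retinoic acid, and DHRS3 works against this flow by reducing retinal back to retinol. Retinoic acid is bound in the cytoplasm by CRABP1 and CRABP2, is degraded by CYP26 enzymes, and acts through nuclear receptors, among them RARB and RARG, that pair with a retinoid X receptor on response elements in DNA. Rarb, Dhrs3, Stra6 and the Cyp26 genes are known targets of retinoic acid in several tissues, and the pathway is known in the mammary gland for its part in epithelial differentiation.

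The study asked what the lysosomal protease cathepsin D, encoded by Ctsd, does in murine breast cancer driven by the PyMT oncogene under the MMTV promoter. Breast tumor tissue was taken at 18 weeks of age from 4 control mice, labelled as wild type for Ctsd, and from 4 MMTV-cre;Ctsd-/- mice. Cre under MMTV deletes Ctsd in mammary epithelium, so the other cells of such a tumor keep the gene, and the study's methods count mice with floxed alleles and no deletion among controls. The cells were spontaneously immortalized tumor cells, 1 line from a Ctsd+/+ PyMT mouse and 1 line from an MMTV-cre;Ctsd-/- PyMT mouse. Both lines were kept in starvation medium with 1% fetal calf serum (FCS), either for 10 days (1% FCS) or for 12 weeks (1% FCS LT), which made 4 cell groups of 3 replicates. Because each genotype is represented by cells of 1 mouse, genotype and cell line cannot be told apart, and p-values measure the spread between samples of a line. A code in the sample descriptions, whose meaning the labels do not give, also separated control from MMTV-cre;Ctsd-/- tumors, so code and genotype cannot be told apart there, whereas in cells every code held both genotypes.

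Between 49725437 and 64291587 reads were counted to genes in a tumor and between 33622831 and 40239762 in a cell sample. Levels are given as CPM, the counts per 1000000 counts of the scaled library. Ctsd itself was lower in every MMTV-cre;Ctsd-/- tumor than in every control tumor (log2 fold change (FC) −1.25, SE 0.38), and in the Ctsd-/- line, with a log2 FC of −4.16 (SE 0.37) in 1% FCS and −3.74 (SE 0.36) in 1% FCS LT. Cell type markers did not stay level across the cell groups. The summed level of 8 fibroblast markers was 1178 to 3310 CPM in the Ctsd+/+ line in 1% FCS, but 5.04 to 11.9 CPM in the Ctsd-/- line in 1% FCS, 3.05 to 8.37 CPM in the Ctsd+/+ line in 1% FCS LT and 9.51 to 99.8 CPM in the Ctsd-/- line in 1% FCS LT. Of these 8 markers, Col1a1, Pdgfrb, Col3a1 and Pdgfra made up nearly all of the sum, whereas Lum and Thy1 were at 0 counts and Dcn had 0 to 62 counts in the Ctsd+/+ line in 1% FCS. The summed level of 5 epithelial markers was lowest in the same Ctsd+/+ line in 1% FCS, with 878 to 1692 CPM, against 4284 to 10112 CPM in the other 9 cell samples. Any comparison that uses the Ctsd+/+ line in 1% FCS therefore moves together with these markers, and their part in it was not tested. The comparison of genotypes in 1% FCS LT does not use that group, but other markers differed there. The summed level of 4 basal epithelial markers was 18.7 to 76.5 CPM in the Ctsd+/+ and 3.85 to 5.46 CPM in the Ctsd-/- line, that of 5 macrophage markers 56.0 to 64.2 and 9.12 to 25.2 CPM, and that of 3 endothelial markers 0.513 to 1.01 and 3.04 to 6.92 CPM. Among the genes behind these values Krt14 and Csf1r were lower in the Ctsd-/- line, as was the epithelial marker Cdh1, with mean levels of 439 against 913 CPM. Other markers of these lists went the other way. The log2 FC was above 0 for 4 of the 5 epithelial markers, with mean levels of 1816 against 1211 CPM for Krt8 and 2288 against 1333 CPM for Krt18. The macrophage marker Cd68 had 5.91, 6.31 and 18.6 CPM in the Ctsd-/- line and 1.76, 3.54 and 5.27 CPM in the Ctsd+/+ line. The part of all these markers in the differences in 1% FCS LT was not tested.

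A match to the response element of retinoic acid receptors in Rarb is printed first, because Rarb is both a receptor of the pathway and one of its classical targets. RefSeq promoter windows of GRCm38.p6, from 250 bases before to 50 bases after a start site, were found for 7 of the 9 genes, in 15 windows. None was found for Aldh1a3 and Crabp2. The windows were searched on both strands for a pair of half-sites, each AGGTCA or AGTTCA or GGGTCA or GGTTCA, in the same orientation with 1, 2 or 5 bases between them. The Rarb window held a pair with 5 bases between the half-sites, starting 53 bases and ending 37 bases before the RefSeq start site. It lay on the minus strand at chr14:16575513-16575529, and the 30 bases around it, chr14:16575507-16575536, are given with the 17 bases of the match in capitals.
Rarb half-site pair: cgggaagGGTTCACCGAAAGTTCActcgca
In the GENCODE M21 annotation the same bases lie in exon 1 of the transcripts Rarb-201 and Rarb-207, whose starts are further upstream. Of all 32851 RefSeq windows, 0.0974% held a pair with 5 bases, 0.268% a pair with 2 bases and 0.222% a pair with 1 base between the half-sites. The windows of Stra6, Rbp4, Aldh1a1, Dhrs3, Crabp1 and Rarg held none of the 3 spacings, which says only that these letters are not in those windows.

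The 9 genes differed widely in level, and the leading gene differed between tumors and cells. Levels of different genes were compared as CPM per kilobase of exon. In control tumors Crabp2 was the most abundant, with 96.4 ± 57.8 CPM per kilobase (SD, n = 4), followed by Dhrs3 with 53.4 ± 5.13, and Rarb was the lowest with 0.135 ± 0.0487. In the cells Rarg led in all 4 groups, from 24.2 ± 1.33 CPM per kilobase (SD, n = 3) in the Ctsd+/+ line in 1% FCS to 50.3 ± 2.89 in the Ctsd+/+ line in 1% FCS LT. In the Ctsd-/- line in 1% FCS LT Rarg was followed by Crabp2 with 6.71 ± 1.28 CPM per kilobase, and each of the other 7 genes lay at or below 0.488. In the Ctsd+/+ line in 1% FCS LT the gene next to Rarg was Dhrs3, with 16.5 ± 9.49 CPM per kilobase. Tumors and cells were scaled separately and their libraries differ in strand, so no test was made between them.

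**Figure D1:**
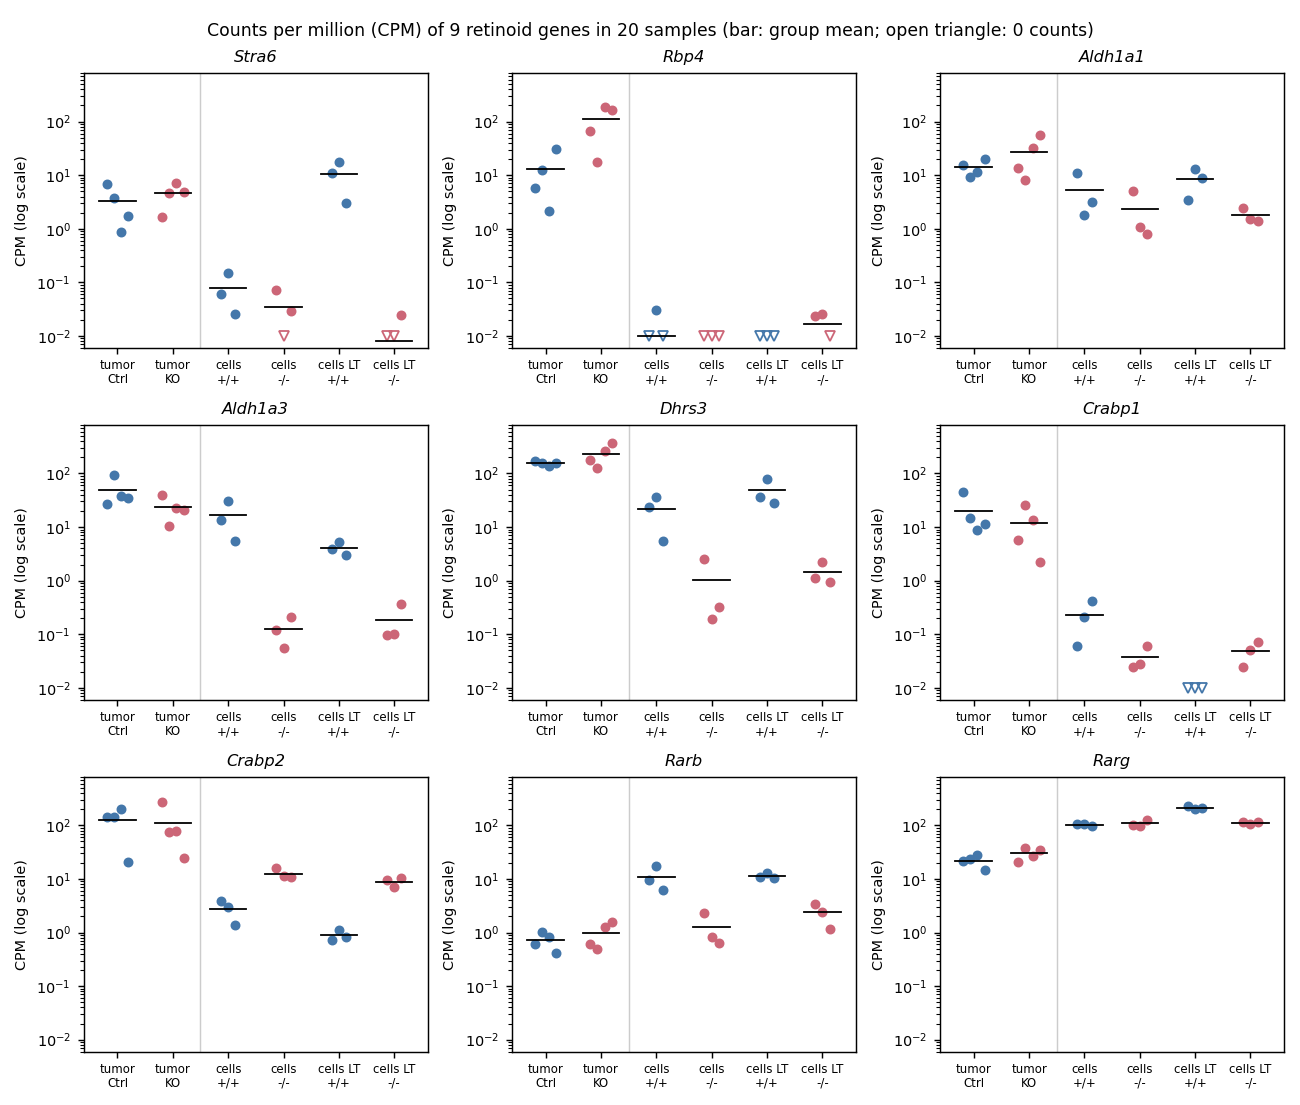
Level of each of the 9 genes in every sample, in CPM on a log axis, with 1 point per sample, a bar at the group mean and an open triangle for a sample with 0 counts. Blue marks control tumors and the Ctsd+/+ line, red marks MMTV-cre;Ctsd-/- tumors and the Ctsd-/- line, and LT marks 12 weeks in 1% FCS; for Dhrs3, Aldh1a3 and Rarb every Ctsd-/- cell sample lies below every Ctsd+/+ cell sample, and for Crabp2 above.

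The first question in cells was how the genotypes differed after 10 days in 1% FCS. Among the 7 genes that passed the filter, Crabp2 was higher and Aldh1a3, Dhrs3 and Rarb were lower in the Ctsd-/- line where a pass asked for a log2 FC beyond 1 in either direction and an adjusted p under 0.05 by the quasi-likelihood test of edgeR. These were 4 of 7 genes, where 25% of all 15178 genes passed in either direction, and their samples were also the ones that did not overlap, as 55.2% of all genes did not. Since the genes were chosen on such values, nothing is read from these counts. Their median log2 FC was −1.20, against 0.00025 over all genes tested. After 12 weeks, 6 of the 7 genes passed, Crabp2 higher and Stra6, Aldh1a1, Aldh1a3, Rarb and Dhrs3 lower, where 19.4% of all genes passed. The genotypes did not overlap in any of the 7, nor in 54.2% of all genes. The median log2 FC of the 7 genes was then −2.27, against 0.014 over all genes tested.

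The retinol receptor gene Stra6 (chromosome 9, 58063788 to 58153996, plus strand) was nearly silent in 3 of the 4 cell groups. The Ctsd+/+ line in 1% FCS had 2, 5 and 1 counts (0.0600, 0.153 and 0.0262 CPM), and the Ctsd-/- line had 3, 0 and 1 counts. In 1% FCS LT, the Ctsd+/+ line had 402, 650 and 121 counts, which are 10.9, 17.3 and 3.07 CPM, and the Ctsd-/- line had 0, 0 and 1 counts. Each 1% FCS LT Ctsd+/+ sample thus lay above each of the other 9 cell samples, although its 3 samples spread widely among themselves. The summed counts of 1173 and 1 give a ratio of 1255 between the genotypes in 1% FCS LT, with an exact 95% interval of 225 to 49606 that covers counting error only. Within the Ctsd+/+ line the summed counts of 1173 and 8 give a ratio of 134 between 1% FCS LT and 1% FCS (67.9 to 312). In 1% FCS the summed counts of 8 and 4 differed by a ratio of 2.14 between the genotypes (0.572 to 9.70). The span of Stra6 overlaps that of Ccdc33 on the other strand and of Gm16131 on its own. The cell counts are specific to strand, so in cells an overlap leaves reads uncounted only where the other gene is on the same strand.

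Rbp4 (chromosome 19, 38116629 to 38125281, minus strand), which encodes the blood carrier of retinol and is made mainly by liver and fat, had 0 or 1 counts in each of the 12 cell samples. Its level in these cells was not detectable at this depth, and no comparison was made.

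Of the genes of retinal oxidizing enzymes, Aldh1a3 was lower in the Ctsd-/- line at both times and Aldh1a1 in 1% FCS LT. Aldh1a3 (chromosome 7, 66390890 to 66427517, minus strand) had 13.4, 30.6 and 5.44 CPM in the Ctsd+/+ line in 1% FCS. The Ctsd-/- line in 1% FCS had 0.122, 0.0548 and 0.207 CPM. The genotypes did not overlap, and the log2 FC was −6.99 (SE 0.77), a 127-fold difference (−6.18 without Ctsd+/+ replicate 2). After 12 weeks the Ctsd+/+ line had 3.97, 5.22 and 2.97 CPM and the Ctsd-/- line had 0.0958, 0.103 and 0.363 CPM, a log2 FC of −4.41 (SE 0.70), or 21.2-fold, and −5.30 without Ctsd-/- replicate 3. Within the Ctsd+/+ line Aldh1a3 was 4.06-fold lower after 12 weeks than after 10 days (log2 FC −2.02, SE 0.56), again without overlap, and by −1.21 without 1% FCS replicate 2. The interaction, which is the genotype difference in 1% FCS LT minus that in 1% FCS, was 2.59 (SE 1.06) on the log2 scale and did not pass.

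Aldh1a1 (chromosome 19, 20492715 to 20643465, plus strand) had a wide spread in 1% FCS. The Ctsd+/+ line had 11.2, 1.83 and 3.11 CPM and the Ctsd-/- line had 5.06, 1.10 and 0.798 CPM, so the groups overlapped (log2 FC −1.20, SE 0.78). Replicate 1 was the highest sample in both genotypes, and it carries another code in the sample description than replicates 2 and 3. Without Ctsd+/+ replicate 1 the log2 FC was −0.086, and without Ctsd-/- replicate 1 it was −2.50. In 1% FCS LT the groups were apart, with 3.43, 13.0 and 9.0 CPM in the Ctsd+/+ line and 2.47, 1.54 and 1.40 CPM in the Ctsd-/- line (log2 FC −2.23, SE 0.80). Aldh1a1 has a close paralog, Aldh1a7, and reads that fit both were not counted, which makes the levels of both uncertain.

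Dhrs3 (chromosome 4, 144892827 to 144928209, plus strand), whose product reduces retinal to retinol, was the other strongly lower gene of retinal turnover. In 1% FCS it had 24.1, 36.1 and 5.39 CPM in the Ctsd+/+ line and 2.56, 0.192 and 0.325 CPM in the Ctsd-/- line, a log2 FC of −4.37 (SE 0.90). After 12 weeks it had 36.2, 80.1 and 28.6 CPM in the Ctsd+/+ line and 1.10, 2.24 and 0.943 CPM in the Ctsd-/- line, a log2 FC of −5.08 (SE 0.91). The genotypes were apart at both times, by 20.7-fold and 33.8-fold. Between the times, each line overlapped with itself, and the log2 FC of 1.14 (SE 0.75) in the Ctsd+/+ line and 0.43 (SE 0.90) in the Ctsd-/- line did not pass. As for Aldh1a1, replicate 1 was the highest of the 3 Ctsd-/- samples in 1% FCS, and without it the log2 FC there was −6.39.

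The binding protein gene Crabp2 (chromosome 3, 87948666 to 87953376, plus strand) ran in the opposite direction. It had 3.93, 3.05 and 1.36 CPM in the Ctsd+/+ line and 15.7, 11.5 and 10.6 CPM in the Ctsd-/- line in 1% FCS. After 12 weeks it had 0.730, 1.12 and 0.811 CPM in the Ctsd+/+ line and 9.43, 6.98 and 10.2 CPM in the Ctsd-/- line. The log2 FC of Ctsd-/- over the Ctsd+/+ line was 2.19 (SE 0.34) and 3.32 (SE 0.37), with no overlap at either time. Both lines had less Crabp2 after 12 weeks, by a log2 FC of −1.64 (SE 0.36) in the Ctsd+/+ line and −0.51 (SE 0.32) in the Ctsd-/- line, the second of which did not pass. Over the 4 cell groups the order was therefore complete, each group lying wholly above the next from the Ctsd-/- line in 1% FCS down to the Ctsd+/+ line in 1% FCS LT. Crabp1 (chromosome 9, 54764748 to 54773110, plus strand), which encodes the related binding protein, had 2, 7 and 16 counts in the Ctsd+/+ line in 1% FCS and 0 in all 3 samples after 12 weeks, at least 2.85-fold lower when 3 counts in each sample are taken as the floor. The Ctsd-/- samples had 1 to 3 counts each at both times, and the gene was not fitted in cells.

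Of the receptors, Rarb was lower in the Ctsd-/- line at both times, and Rarg differed between the genotypes in 1% FCS LT alone by non-overlapping samples. Rarb (chromosome 14, 16430839 to 16819156, minus strand) had 9.45, 17.4 and 6.31 CPM in the Ctsd+/+ line and 2.34, 0.822 and 0.650 CPM in the Ctsd-/- line in 1% FCS. Long-term levels were 10.7, 13.0 and 10.6 CPM in the Ctsd+/+ line and 3.47, 2.45 and 1.19 CPM in the Ctsd-/- line. The log2 FC was −3.10 (SE 0.54) and −2.27 (SE 0.52), and the gene whose promoter window holds the half-site pair printed above was thus 8.59-fold and 4.82-fold lower. Without Ctsd-/- replicate 1, again the highest of its group, the log2 FC in 1% FCS was −3.89. Between the times Rarb of the Ctsd+/+ line differed by a log2 FC of 0.050 (SE 0.48).

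Rarg (chromosome 15, 102234938 to 102257517, minus strand) was the most even of the 9 genes between cell replicates. In 1% FCS it had 108, 105 and 96.8 CPM in the Ctsd+/+ line and 104, 97.9 and 124 CPM in the Ctsd-/- line, a log2 FC of 0.074 (SE 0.10). After 12 weeks it had 228, 205 and 209 CPM in the Ctsd+/+ line and 114, 108 and 114 CPM in the Ctsd-/- line, a log2 FC of −0.94 (SE 0.10). Rarg was thus 1.92-fold higher in the Ctsd+/+ than in the Ctsd-/- line after 12 weeks and 2.08-fold higher than in the same line after 10 days, and the other 3 cell groups overlapped one another. The rise in the Ctsd+/+ line had a log2 FC of 1.05 (SE 0.10) and the interaction was −1.01 (SE 0.14), both just past the limit of 1.

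Across time, 4 of the 7 genes passed the thresholds in the Ctsd+/+ line, Stra6 and Rarg higher and Aldh1a3 and Crabp2 lower after 12 weeks, where 23.4% of all genes passed. The same 4 were the genes whose samples did not overlap between the times, which held for 53.7% of all genes. In the Ctsd-/- line 0 of the 7 passed with edgeR, where 1.48% of all genes did, and 0 had an unadjusted p under 0.05 or passed with DESeq2 or limma-voom. Crabp2 was the 1 gene of the 7 whose samples did not overlap there, as held for 25.4% of all genes. In the interaction 2 of the 7 passed, Stra6 and Rarg, where 19.1% of all genes did. The count of 2 fell to 1 without replicate 1 or 3 of the Ctsd-/- line in 1% FCS, without 1% FCS LT Ctsd+/+ replicate 1 or without 1% FCS LT Ctsd-/- replicate 2.

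**Figure D2:**
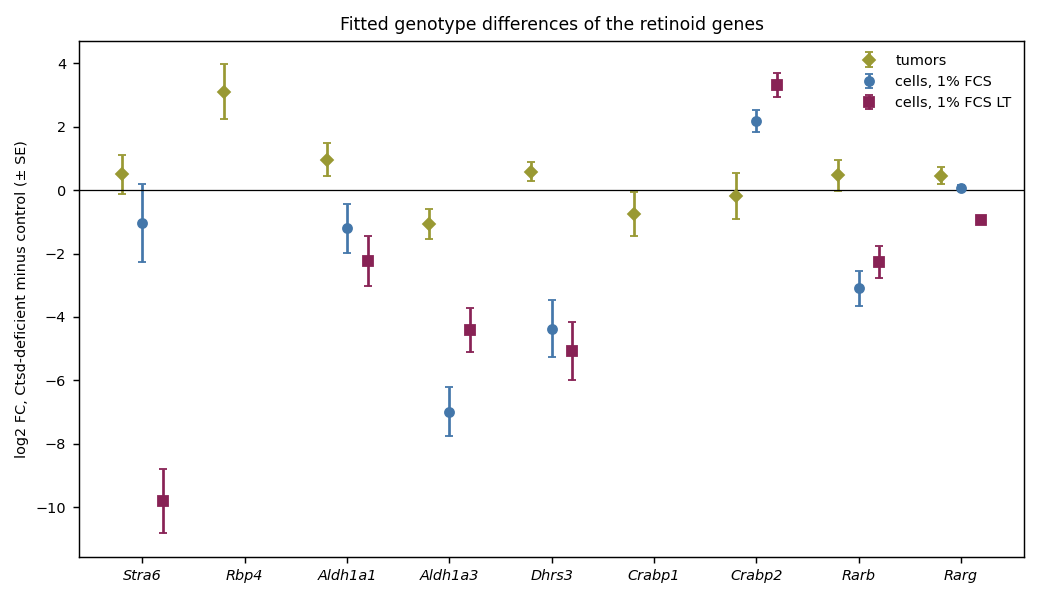
Fitted log2 FC of Ctsd-deficient over control samples for each gene, with the SE as error bar, in tumors (diamonds), cells in 1% FCS (circles) and cells in 1% FCS LT (squares). Rbp4 and Crabp1 have a value in tumors only; Stra6 in 1% FCS LT is lowest at −9.82, a fit against 0, 0 and 1 counts whose size depends on the prior count, and Crabp2 is the gene with values above 0 in both cell comparisons beyond its SE.

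The other genes of the pathway were taken from a list of 66 genes in 8 roles, of which 38 passed the filter in cells and 49 in tumors. In 1% FCS 4 of the 38 were higher and 12 lower in the Ctsd-/- line by edgeR, where 10.3% and 14.6% of all genes were, and the median log2 FC was −0.12. In 1% FCS LT 4 were higher and 2 lower, where 9.24% and 10.1% of all genes were, and the median was 0.16. Between the times 4 were higher and 9 lower after 12 weeks in the Ctsd+/+ line, where 11% and 12.3% of all genes were. In the Ctsd-/- line 0 of the 38 passed between the times with edgeR, where 1.11% of all genes were higher and 0.369% lower. The unadjusted p was under 0.05 in 12 of the 38, and 2 passed with DESeq2. For these last counts the share of all genes is not given, so nothing is read from them. In the interaction 12 passed upward and 3 downward, where 11% and 8.12% of all genes did.

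The carriers and uptake genes were led in 1% FCS by Lrp2. Lrp2, which encodes the endocytic receptor megalin, had 38.4, 18.1 and 25.4 CPM in the Ctsd+/+ line in 1% FCS and 0.330 CPM or less in each of the other 9 cell samples. Its log2 FC was −8.21 between the genotypes in 1% FCS (SE 0.62, adjusted p = 1.32e-06) and −7.26 over time in the Ctsd+/+ line (SE 0.57, adjusted p = 2.04e-06). Without Ctsd-/- replicate 1 the first was −9.21, and without 1% FCS LT Ctsd+/+ replicate 3 the second was −8.13. Fabp5, which encodes a lipid binding protein that can also carry retinoic acid, was higher in the Ctsd-/- line at both times, by a log2 FC of 1.66 (SE 0.32, adjusted p = 0.00131) and 1.98 (SE 0.33, adjusted p = 0.000576). The carotenoid oxygenase genes Bco1 and Bco2 were near the floor, with at most 0.346 and 0.986 CPM in a cell sample. Bco2 differed between the genotypes in 1% FCS LT (log2 FC −2.17, SE 0.66, adjusted p = 0.0217), a call lost without any of 4 of the 6 samples, among them Ctsd+/+ replicate 2 (−1.20, adjusted p = 0.152).

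**Figure D3:**
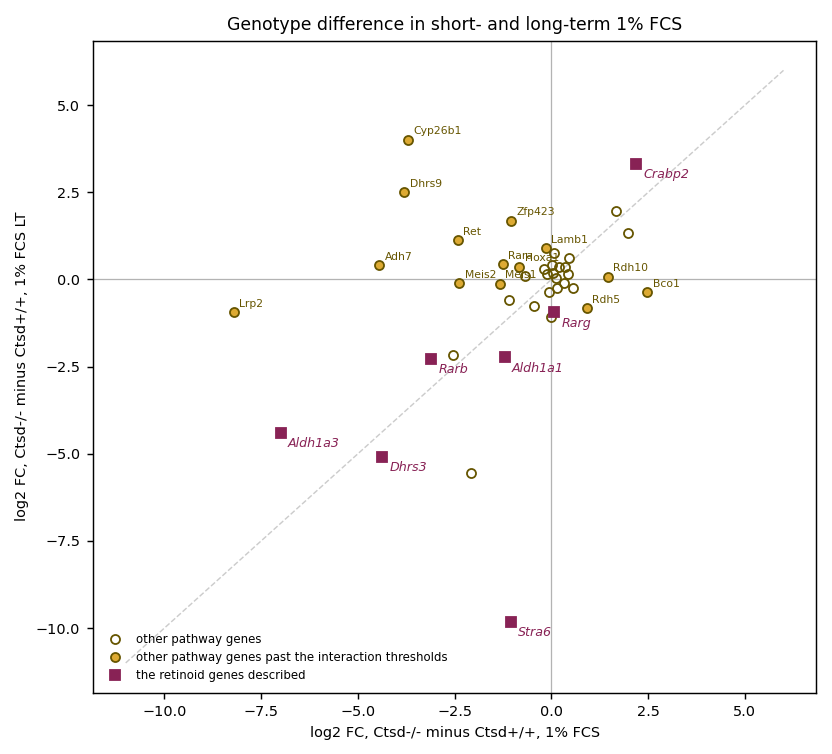
Log2 FC of Ctsd-/- over the Ctsd+/+ line in 1% FCS (horizontal axis) and in 1% FCS LT (vertical axis) for the 7 described genes that passed the filter (squares) and other pathway genes tested in cells (circles, filled where the interaction passed the thresholds). Aldh1a3, Dhrs3, Rarb and Crabp2 lie on the same side of 0 on both axes, and Lrp2, Adh7, Dhrs9 and Cyp26b1 lie far to the left with 1% FCS LT values between −0.93 and 4.01.

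Among the enzymes that interconvert retinol and retinal, Adh7 and Dhrs9 were lower in the Ctsd-/- line in 1% FCS. For Adh7, an alcohol dehydrogenase, the difference was −4.45 on the log2 scale (SE 0.87; adjusted p = 0.00135), or −3.77 without Ctsd+/+ replicate 3, and its interaction was 4.87 (SE 1.14, adjusted p = 0.00731). Dhrs9 had 45.9, 2.81 and 3.45 CPM in the Ctsd+/+ line and 1.63, 1.15 and 0.946 CPM in the Ctsd-/- line, a log2 FC of −3.80 (SE 1.02, adjusted p = 0.00902) that became −1.33 (adjusted p = 0.0843) without Ctsd+/+ replicate 1. Rdh10, the main retinol dehydrogenase of the embryo, was higher in the Ctsd-/- line, with 111, 89.2 and 100.3 CPM against 41.1, 34.9 and 33.4 CPM (log2 FC 1.46, SE 0.14, adjusted p = 6.86e-06). In the Ctsd+/+ line it rose over time to 105, 127 and 124 CPM (log2 FC 1.70, SE 0.14, adjusted p = 2.61e-06). The Ctsd-/- line in 1% FCS LT had 124, 145 and 107 CPM. Sdr16c5, a retinol dehydrogenase gene, had 0.351, 1.17 and 2.41 CPM in the Ctsd+/+ line in 1% FCS LT and 0, 0.0257 and 0.0484 CPM in the Ctsd-/- line (adjusted p = 0.000935). The summed counts of 152 and 3 give a ratio of 54.2 with an exact 95% interval of 18.2 to 266 that covers counting error only, not the spread between samples.

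The degrading enzyme gene Cyp26b1 went against the genotype difference of Rarb and Dhrs3 in 1% FCS LT. Its levels there were 0.621, 0.533 and 0.304 CPM in the Ctsd+/+ line and 18.0, 4.45 and 1.09 CPM in the Ctsd-/- line, a log2 FC of 4.01 (SE 1.16, adjusted p = 0.0165). Ctsd-/- replicate 1, the highest of these samples, also had the highest fibroblast marker sum of its group, 99.8 CPM against 14.4 and 9.51 CPM. Most of that sum was 1 gene, Pdgfrb, with 84.9 CPM. Pdgfra had 10.6 CPM there against 6.82 and 6.46 CPM, and Col1a1 3.95 CPM against 3.37 and 1.96 CPM. In 1% FCS the groups overlapped, with 8.85, 3.02 and 0.314 CPM in the Ctsd+/+ line and 0.560, 0.219 and 0.118 CPM in the Ctsd-/- line, and the interaction was 7.72 (SE 1.66, adjusted p = 0.00448). The genotype difference in 1% FCS LT was 2.51 (adjusted p = 0.0859) without Ctsd-/- replicate 1, was 4.08 (adjusted p = 0.0538) and 3.76 (adjusted p = 0.0575) without Ctsd+/+ replicates 2 and 3, and was 3.23 (adjusted p = 0.107) with limma-voom.

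The receptor gene Rara had 154, 96.0 and 82.9 CPM in the Ctsd+/+ line in 1% FCS and 53.5, 34.0 and 51.3 CPM in the Ctsd-/- line (log2 FC −1.26, SE 0.22, adjusted p = 0.000612). Over time it fell in the Ctsd+/+ line to 39.2, 42.0 and 35.5 CPM (log2 FC −1.51, SE 0.22, adjusted p = 0.000196), and it had 55.2, 53.4 and 50.3 CPM in the Ctsd-/- line in 1% FCS LT. Its interaction was 1.71 (SE 0.31, adjusted p = 0.00166). Rara was thus highest in the Ctsd+/+ line in 1% FCS and Rarg in the same line in 1% FCS LT. Without Ctsd+/+ replicate 1 the difference of Rara in 1% FCS was −0.95, under the fold limit.

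Genes that retinoic acid induces in other systems moved in both directions. In 1% FCS 1 of the 8 tested was higher and 3 were lower in the Ctsd-/- line, where 10.3% and 14.6% of all genes were. Meis2, a homeobox gene, had 28.8, 26.0 and 22.1 CPM in the Ctsd+/+ line and 5.77, 4.24 and 4.73 CPM in the Ctsd-/- line (log2 FC −2.38, SE 0.21, adjusted p = 4.28e-06). Ret, a receptor tyrosine kinase gene, was lower too (log2 FC −2.41, SE 0.46, adjusted p = 0.00118, and −1.53 without Ctsd+/+ replicate 2). In 1% FCS LT 1 of the 8 passed, Cd38, whose product degrades NAD, with 17.4, 17.2 and 16.9 CPM in the Ctsd-/- line and 6.0, 7.62 and 6.59 CPM in the Ctsd+/+ line (log2 FC 1.35, SE 0.14, adjusted p = 1.83e-05). Of all genes 9.24% passed upward and 10.1% downward there.

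**Figure D4:**
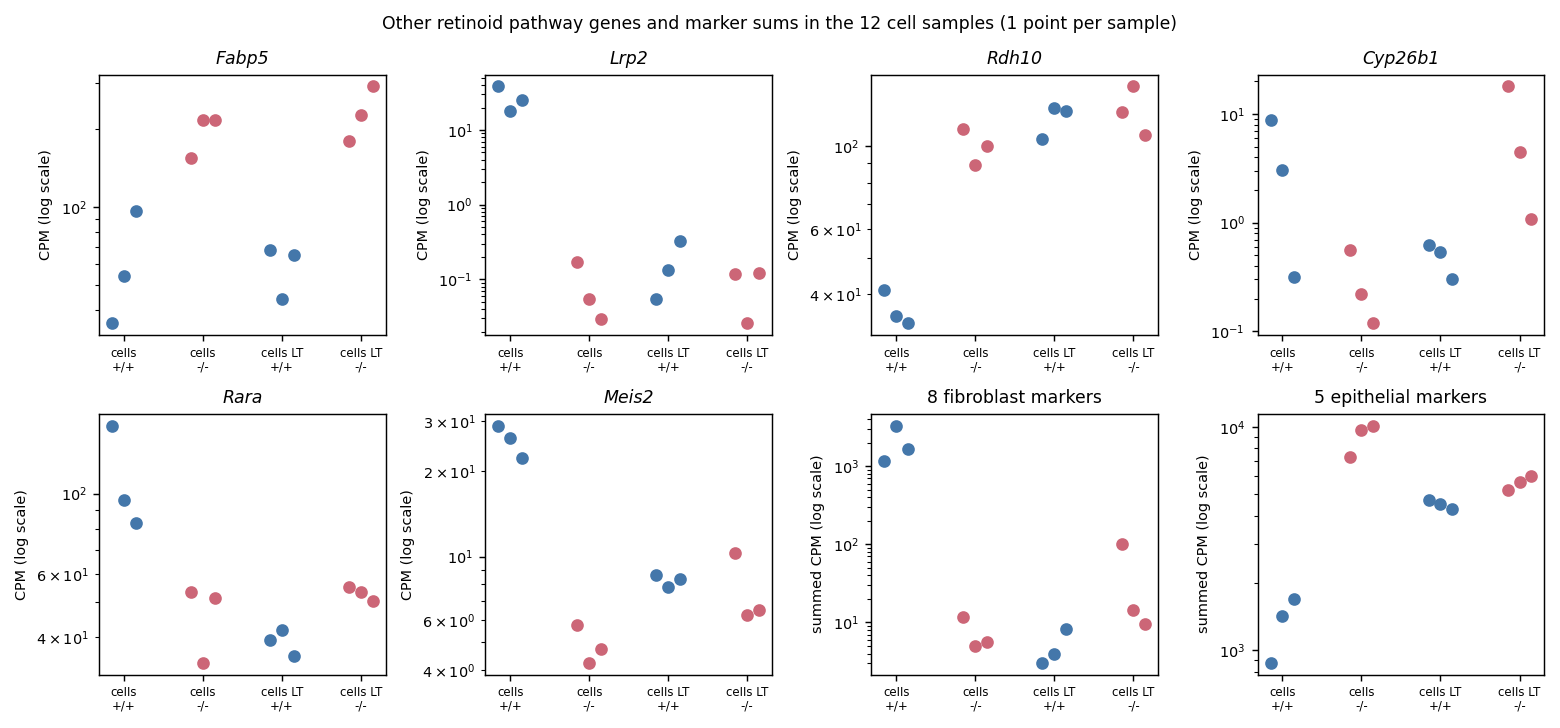
CPM of 6 other pathway genes in the 12 cell samples on log axes, with 1 point per sample, beside the summed CPM of 8 fibroblast and 5 epithelial markers. Lrp2, Rara and Meis2 are highest and Rdh10 lowest in the Ctsd+/+ line in 1% FCS, the group with the highest fibroblast sum (1178 to 3310 CPM) and the lowest epithelial sum (878 to 1692 CPM).

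The genes most like 6 of the described genes over the 12 cell samples were taken by Pearson's r of log2 CPM, as a description over samples that share 2 lines and 2 culture times. Stra6 was followed by D130052B06Rik (r = 0.983), Slurp1 (0.982) and Lypd2 (0.976). Outside the Ctsd+/+ line in 1% FCS LT every cell sample had at most 5 counts of Stra6, so its r mainly follows that group. Rarb was followed by Csdc2 (0.969), Acaa2 (0.967) and H2-T-ps (0.964), and Dhrs3 by Rapgefl1 (0.978), Vdr (0.968), which encodes the vitamin D receptor, and H2-T-ps (0.964). Rarb and Dhrs3 had an r of 0.958 with each other. For Aldh1a3 the nearest genes were Manea (0.983), Kif1b (0.983) and Medag (0.981), for Crabp2 they were Bcas3 (0.989), Lcp1 (0.986) and Gm7173 (0.984), and for Rarg Gm34294 (0.976), Trpm4 (0.975) and Tspan14 (0.972).

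In tumors the genotypes differed less, and in none of the 9 genes were they wholly apart, where 4.15% of all 18617 genes were. At an unadjusted p under 0.1, the threshold of the study for tumors, 3 of the 9 genes were higher (Rbp4, Aldh1a1 and Dhrs3) and 1 was lower (Aldh1a3) in MMTV-cre;Ctsd-/- tumors. These were 4 of 9 genes, where 16.7% of all genes passed in either direction, and nothing is read from the count. It was 1 without control tumor 2, 2 without MMTV-cre;Ctsd-/- tumor 3 or 4, and 5 without MMTV-cre;Ctsd-/- tumor 1. With an adjusted p under 0.05, 0 of the 9 passed with edgeR, where 0.00537% of all genes did. The unadjusted p was under 0.05 in 2 of the 9, a count given without the share of all genes and not read. The white adipocyte markers passed the same unadjusted threshold upward in MMTV-cre;Ctsd-/- tumors, 5 of 5, with a summed level of 73.2 to 664 CPM in control and 519 to 4578 CPM in MMTV-cre;Ctsd-/- tumors. Of 3 brown adipocyte markers 3 passed upward as well, with sums of 4.15 to 15.6 and 12.8 to 153 CPM. Of 3 endothelial markers 2 did, and their sums were 195 and 182 CPM in MMTV-cre;Ctsd-/- tumors 3 and 4 and 26.3 to 75.3 CPM in the other 6 tumors. The part of the brown adipocyte and endothelial markers in the differences was not tested. In bulk tumor RNA fewer cells of a type and less RNA per cell cannot be told apart.

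Rbp4, a gene that fat expresses, had 5.88, 12.3, 2.16 and 30.8 CPM in control tumors, in the order of their numbers. The levels in MMTV-cre;Ctsd-/- tumors were 67.3, 17.5, 190.2 and 163 CPM. The groups overlapped through control tumor 4 and MMTV-cre;Ctsd-/- tumor 2, and the log2 FC was 3.10 (SE 0.87), or 4.02 without control tumor 4. The mean log2(CPM + 1) of the white adipocyte markers was, in the same order, 4.07, 5.26, 3.32 and 5.76 in controls and 6.33, 5.69, 8.05 and 8.92 in MMTV-cre;Ctsd-/- tumors. Control tumor 4 had the highest and control tumor 3 the lowest value of both measures among controls, and MMTV-cre;Ctsd-/- tumor 2 had the lowest value of both in its group. With the marker mean as a covariate the log2 FC of Rbp4 between the genotypes was 0.30 (SE 0.56). The marker mean nearly separated the genotypes, with 3.32 to 5.76 in controls and 5.69 to 8.92 in MMTV-cre;Ctsd-/- tumors. Marker mean and genotype can therefore hardly be told apart. No conclusion is drawn from the order of the tumors, or from values fitted with this covariate, here or below. The part of the white adipocyte markers in the difference of Rbp4 was not tested apart from genotype.

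Aldh1a1 had 15.6, 9.36, 11.4 and 20.1 CPM in control tumors and 13.6, 8.18, 32.3 and 55.6 CPM in MMTV-cre;Ctsd-/- tumors (log2 FC 0.96, SE 0.53, and 0.36 without MMTV-cre;Ctsd-/- tumor 4). Dhrs3 had 174, 159, 138 and 155 CPM in control tumors and 178, 127, 267 and 366 CPM in MMTV-cre;Ctsd-/- tumors (log2 FC 0.58, SE 0.30). MMTV-cre;Ctsd-/- tumors 3 and 4 had the highest white adipocyte, brown adipocyte, endothelial and basal epithelial marker sums of all 8. For both genes these MMTV-cre;Ctsd-/- tumors lay above every control tumor. Tumors 1 and 2 of that group did not, except for Dhrs3 in tumor 1, which was just above the highest control. With the marker mean as a covariate both differences changed sign, to −0.99 (SE 0.60) and −0.33 (SE 0.38). Without the covariate Dhrs3 and Aldh1a1 had the opposite direction in tumors to that in the cell lines in 1% FCS LT. The 5 adipocyte markers had 3 counts or fewer in every sample of those cell lines. The part of these and the other markers in the opposite directions was not tested.

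Of the 4 genes that passed in tumors, Rbp4 was not fitted in cells, and of the others Aldh1a3 alone had the same direction in tumors and cells. It had 26.6, 95.3, 38.8 and 34.6 CPM in control tumors and 39.6, 10.4, 23.0 and 20.6 CPM in MMTV-cre;Ctsd-/- tumors, a log2 FC of −1.06 (SE 0.47). The log2 FC was −0.51 without control tumor 2 and −1.43 without MMTV-cre;Ctsd-/- tumor 1. Of the MMTV-cre;Ctsd-/- tumors 3 lay below every control tumor, and tumor 1 lay above 3 of the 4.

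**Figure D5:**
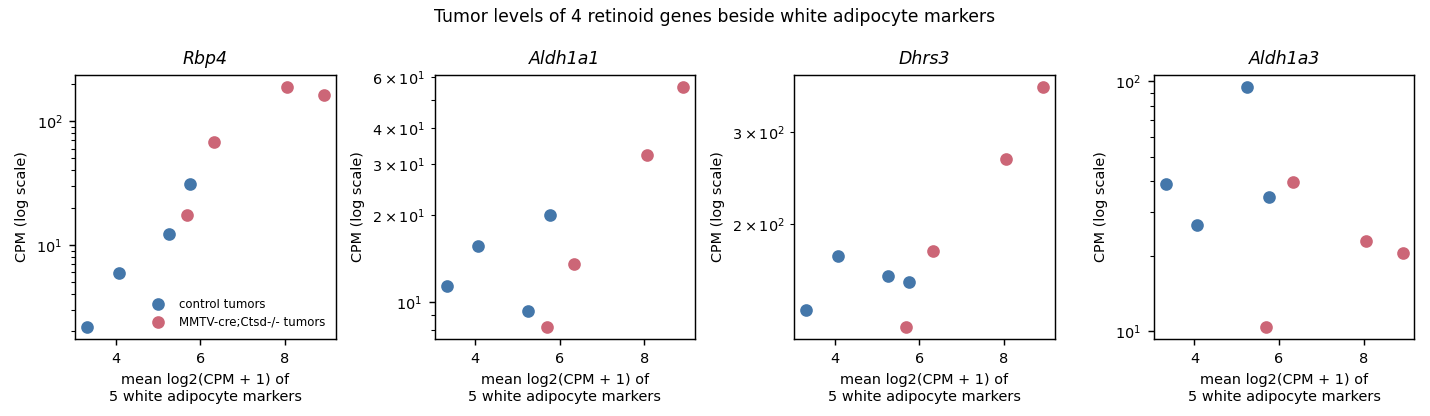
CPM of Rbp4, Aldh1a1, Dhrs3 and Aldh1a3 (vertical, log axes) against the mean log2(CPM + 1) of 5 white adipocyte markers (horizontal) in the 8 tumors, control tumors in blue and MMTV-cre;Ctsd-/- tumors in red. Rbp4 had 2.16 CPM in the control tumor with the lowest marker mean, and 190.2 and 163 CPM in the MMTV-cre;Ctsd-/- tumors with the highest. Marker mean and genotype can hardly be told apart here.

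The other 5 genes did not pass in tumors. Stra6 had 6.72, 3.75, 0.879 and 1.72 CPM in control and 1.64, 4.70, 7.23 and 4.94 CPM in MMTV-cre;Ctsd-/- tumors (log2 FC 0.50, SE 0.62, and 1.13 without control tumor 1). Crabp1 had 44.5, 14.7, 8.99 and 11.5 CPM against 5.83, 25.5, 13.8 and 2.24 CPM (log2 FC −0.75, SE 0.71). This difference was 0.52 (SE 0.98) with the adipocyte covariate, 0.017 without control tumor 1 and −1.45 without MMTV-cre;Ctsd-/- tumor 2. Crabp2 had 141, 144, 203 and 21.0 CPM against 267, 74.7, 79.7 and 24.7 CPM (log2 FC −0.19, SE 0.73), and tumor 4 had the lowest level in both groups. Its difference was 1.83 (SE 0.94) with the adipocyte marker mean as a covariate and −1.08 without MMTV-cre;Ctsd-/- tumor 1. Rarb had 0.618, 1.00, 0.812 and 0.406 CPM against 0.608, 0.492, 1.27 and 1.58 CPM (log2 FC 0.47, SE 0.50, and −0.53, SE 0.82, with the covariate), from counts regardless of strand in a gene that Top2b overlaps on the other strand. Rarg had 21.3, 23.1, 28.5 and 14.8 CPM against 21.1, 37.5, 27.2 and 34.8 CPM (log2 FC 0.46, SE 0.26).

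Of the 49 other pathway genes tested in tumors, 11 were higher and 4 lower at an unadjusted p under 0.1. Of all genes 8.44% were higher and 8.27% lower. With edgeR 0 of the 49 had an adjusted p under 0.05. The unadjusted p was under 0.05 in 10 of the 49, a count given without the share of all genes and not read. The groups were apart for 3 of the 49, Dgat1 and Rdh10 among these, where 4.15% of all 18617 genes were. Dgat1, which encodes an acyltransferase that makes triglycerides and can make retinyl esters, had 20.8, 37.9, 41.4 and 33.2 CPM against 62.6, 45.8, 92.8 and 124 CPM (log2 FC 1.29, SE 0.33, adjusted p = 0.401). Rdh10 had 15.3, 19.4, 11.7 and 13.3 CPM against 11.6, 9.06, 10.1 and 8.66 CPM (log2 FC −0.60, SE 0.23, adjusted p = 0.544), the opposite direction to that in cells in 1% FCS. With the adipocyte marker mean as a covariate, 2 of the 49 genes passed the unadjusted threshold in place of 15, and without MMTV-cre;Ctsd-/- tumor 4, 9 did. The share of all genes is not given for these fits, so nothing about the pathway is read from the change in count.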

How the data were processed

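RNA of 8 tumors and 12 cell samples was sequenced. Per the labels and the methods of the study, the authors used Trimmomatic for trimming and STAR for mapping to GRCm38 (mm10), with versions not given in the sources used here. They deposited raw counts per Ensembl gene without normalization, in 3 strand forms. Counts regardless of strand were used for tumors, where 52.8% to 53.7% of strand-assigned counts lay on the opposite strand, and opposite-strand counts for cells, where 97.1% to 97.3% did. Reads not assigned to 1 gene (24.7% to 32.7% in tumors, 14.8% to 18.9% in cells) were left out of library sizes and tests. Symbols came from GENCODE M21, which held 45143 of the 45706 identifiers.

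The main tool was edgeR 4.0.16 under R 4.3.3 (filterByExpr, TMM, two-sided quasi-likelihood F-test, Benjamini-Hochberg adjustment over all genes tested), with the 12 cell samples in 1 fit. The common biological coefficient of variation came to 0.429 for tumors and 0.217 for the cell samples. Adjusted p-values are from edgeR unless another tool is named. Alternatives used DESeq2 1.42.0 and limma 3.58.1. The SE is the absolute log2 FC divided by the square root of F. The settings were tested on simulated data. No pair of replicates of a group was alike within sampling noise (chi-square per gene at least 15.4 over 24 pairs).

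The 9 genes and all lists were chosen with earlier results of these data known. Besides the 9 genes and Ctsd, the genes named are, for each role list and comparison, at most 2 genes, those furthest from 0 in log2 FC that passed and whose groups did not overlap (in the interaction, that passed), and the 3 genes with the highest r to each gene. Genes outside this rule, chosen after their values were seen, are Cyp26b1 in 1% FCS, Rdh10 in cells and those named for their change of sign or an outlying sample in the closing section. Genes that this rule would name but that are absent from the text are not reported here.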

Additional observations from a re-analysis of the deposited data

Results flagged for a closer look

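A test for a sample far from the rest of its group was applied to 50 groups of 4 tumors, and chance alone flags about 1 in 20 groups. It marked 3 samples. Crabp1 had 44.5 CPM in control tumor 1, against 8.99 to 14.7 CPM in the other 3 control tumors. Bco2, a carotenoid oxygenase gene, had 0.796 CPM in control tumor 3, against 2.00 to 2.24 CPM in the others, and 1.34 CPM in MMTV-cre;Ctsd-/- tumor 1, against 0.730 to 0.815 CPM in the others of its group.

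The genotype difference changed between 1% FCS and 1% FCS LT in 15 of the 38 other pathway genes tested. This was by the test of the interaction with edgeR, upward in 12 and downward in 3, where 11% and 8.12% of all genes passed. For 8 of those taken by the rule for named genes it was, on the log2 scale, 7.72 for Cyp26b1, 7.28 for Lrp2, 6.30 for Dhrs9, 4.87 for Adh7, 3.55 for Ret, 2.72 for Zfp423, 2.27 for Meis2 and 1.71 for Rara, with adjusted p-values from 0.00015 for Meis2 to 0.0402 for Zfp423. Samples of the Ctsd+/+ line in 1% FCS, which had fibroblast marker sums of 1178 to 3310 CPM, form 1 of the 4 groups behind each of them. The part of those markers in the interactions was not tested. Without 1% FCS LT Ctsd-/- replicate 1 the interaction of Zfp423 was 2.06 (adjusted p = 0.108), and Zfp423 also lost its call without any of 7 other samples. Leaving out 1 sample moved Cyp26b1 to 6.22 (1% FCS LT Ctsd-/- replicate 1), Lrp2 to 8.28 (1% FCS Ctsd-/- replicate 1), Dhrs9 to 3.83 and Ret to 2.65 (1% FCS Ctsd+/+ replicates 1 and 2), and Adh7 to 4.10 (1% FCS LT Ctsd-/- replicate 1). With limma-voom, among these 8, the calls of Cyp26b1 (6.11, adjusted p = 0.0685), Dhrs9 (4.80, adjusted p = 0.0773) and Zfp423 (2.68, adjusted p = 0.0517) were lost.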

How the results depend on the processing

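Each choice was changed in turn, and the cause of the changes below was not tested. For these alternatives the share of all genes is not given here, so nothing about the pathway is read from the counts in this section. With at least 10 counts required in every sample, fewer genes were tested, and the described genes past the thresholds were 2 in 1% FCS, 3 in 1% FCS LT, 2 over time in Ctsd+/+ cells and 0 in the interaction, and the other pathway genes 10, 2, 8 and 9. In tumors the described genes past the threshold were 2 with limma-voom and 2 with the adipocyte covariate, under which 2 of the other pathway genes passed, and an adjusted p under 0.05 left 0 of each. The adipocyte covariate nearly separated the genotypes, so it can hardly be told apart from genotype in these fits. This covariate turned the sign of Aldh1a1 (−0.99), Dhrs3 (−0.33), Rxrg (−0.29), Aldh1a7 (−0.10), Meis2 (−0.47), Adh1 (−0.34), Rarres2 (−0.59) and Retsat (−0.041), which had passed, and of Crabp2 (1.83), Rarb (−0.53) and Crabp1 (0.52), which had not, and brought Stra6 close to 0. Over time in Ctsd-/- cells, where 0 of the other pathway genes passed, 2 did with DESeq2, 3 without a filter, 1 with the description code as a covariate and 4 within 1 code. Within 1 code 1 described gene passed the interaction. Of 85 log2 FC values fitted within 1 code, 13 from described genes moved by the average SD within groups or more. Another 4, from other pathway genes, lost their call, and 0 that had passed changed sign. Without a fold limit 12 of the other pathway genes passed between genotypes in 1% FCS LT and 23 over time in Ctsd+/+ cells.

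Leaving out each sample gave 1 to 5 described genes in tumors (1 without control tumor 2, 2 without MMTV-cre;Ctsd-/- tumor 3 or 4), 4 to 5 in 1% FCS, 5 to 6 in 1% FCS LT, 0 to 0 and 3 to 4 over time in Ctsd-/- and Ctsd+/+ cells, and 1 to 3 in the interaction. For the other pathway genes it gave 9 to 21 in tumors (9 without MMTV-cre;Ctsd-/- tumor 4), 14 to 18, 4 to 9, 0 to 3, 11 to 17 and 14 to 16. Over time in Ctsd-/- cells 3 passed without 1% FCS LT replicate 3 and 1 without 1% FCS Ctsd+/+ replicate 1 or 3.

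Replicate numbers were not treated as pairs, since not every same-numbered pair deviated together. Deviations of same-numbered samples correlated above 0.1 in 0 of 4 tumor pairs and 7 of 18 cell pairs, and in 11 of the 18 cell pairs the correlation was highest for the same number, a hint of pairing from the data. In cells the number also goes in part with the description code, since replicate 1 of both 1% FCS groups has a code of its own, as has replicate 3 of both 1% FCS LT groups. With the replicate block 1 described gene passed in tumors and 1 other pathway gene over time in Ctsd-/- cells. With DESeq2 size factors, counts regardless of strand in cells and fits of only the 2 groups compared, every count stayed within 1.5 times its value.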
